A study of Mus musculus with 8 samples.

Results

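The genes described here are 10 classic readouts of macrophage polarization and inflammation, chosen by name among the 46517 genes of the count table. Nos2, Tnf, Il1b, Il6, Nlrp3 and Il18 belong to the proinflammatory M1 side, and Il10, Mrc1, Retnla and Il1rn to the antiinflammatory M2 side. They were read in whole liver RNA from 4 WT mice, which were FoxO1 loxP/loxP littermates without Cre (replicates 22 to 25), and 4 MøFoxO1-KO mice, which were FoxO1 loxP/loxP and carried Lyz2-Cre (replicates 26 to 29). All 8 were C57BL/6 males that began the NASH diet at 6 weeks of age, ate it for 25 weeks, and were killed at 31 weeks of age after a fast of 16 hours. Cre came from the promoter of lysozyme 2, a gene of macrophages, monocytes and neutrophils, so the deletion was aimed at these cells and not at hepatocytes, endothelial cells or stellate cells. The comparison asks whether the balance of M1 and M2 transcripts in the liver differed with loss of FoxO1 in myeloid cells.

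Macrophages respond to bacterial products and interferon gamma by making inducible nitric oxide synthase and cytokines such as TNF, IL-6 and IL-1β, a state called M1. IL-4 and IL-13 act through STAT6 to give the M2 state, marked by the mannose receptor and the secreted resistin-like protein RELMα. IL-1β and IL-18 are made as inactive precursors and are cut by caspase-1 in the NLRP3 inflammasome, so their mRNA level is not the level of the active cytokine. In the liver, resident macrophages are called Kupffer cells, and the mannose receptor is also known from sinusoidal endothelial cells.

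The sequences shown are those upstream of the start sites of Il1b, the gene with the largest difference among the tested genes of the set, Il1rn, which encodes the antagonist of the same receptor, and Retnla, which had no read in any liver. They are RefSeq sequences on GRCm38.p6, written 5′ to 3′ on the strand of the gene, and stop before the first exon base in GENCODE M21. The Il1b sequence covers chr2:129371140-129371389 on the minus strand, with the TATA box letters TATAAA in capitals. The Il1rn sequence covers chr2:24345041-24345287 on the plus strand, before an internal start site, and the Retnla sequence covers chr16:48842359-48842550 on the plus strand. In these last sequences the capitals mark the spaced palindrome TTCNNNNGAA to which STAT6 is known to bind.
Il1b: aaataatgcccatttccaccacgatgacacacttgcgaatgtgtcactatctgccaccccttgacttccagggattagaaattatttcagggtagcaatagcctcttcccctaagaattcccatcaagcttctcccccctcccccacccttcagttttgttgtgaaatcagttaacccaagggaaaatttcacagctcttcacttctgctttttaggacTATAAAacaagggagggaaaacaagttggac
Il1rn: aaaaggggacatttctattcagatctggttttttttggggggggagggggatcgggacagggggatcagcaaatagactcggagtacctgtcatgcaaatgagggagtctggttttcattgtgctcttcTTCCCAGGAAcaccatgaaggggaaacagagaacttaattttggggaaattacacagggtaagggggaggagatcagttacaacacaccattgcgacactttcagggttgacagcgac
Retnla: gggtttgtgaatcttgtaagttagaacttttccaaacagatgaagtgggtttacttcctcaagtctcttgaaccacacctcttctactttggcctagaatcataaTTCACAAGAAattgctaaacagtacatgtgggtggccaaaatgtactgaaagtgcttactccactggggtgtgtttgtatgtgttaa

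Windows of 300 bases, from 250 before to 50 after the start site, were given for 8 of the 10 genes in 11 windows, while Nos2 and Il10 had no window. TTCNNNNGAA, the same on both strands, was found at 4 distinct sites, 1 each in Il1rn, Il18, Nlrp3 and Retnla, and in 6.95% of all 32851 mouse windows. The Il1rn site lies in 2 overlapping windows, so 5 of the 11 windows hold the letters, and the other Il1rn window has none. TATAAA, read on the gene's strand only, was found in Il1b, Tnf and Retnla and in 8.32% of all windows. The forkhead letters GTAAACA, read on both strands, were found in 0 of the 11 windows and in 3.65% of all windows. A match describes letters and not a bound site.

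Total counts per liver lay between 15253218 and 18025481, and 13278 genes passed the filter on low counts. Counts were scaled by TMM to the mean library size, and these scaled values are called normalized counts. Foxo1 itself had 328 to 467 counts in WT and 253 to 448 in MøFoxO1-KO livers (log2 fold change -0.17, edgeR, adjusted P = 0.686), which in whole liver holds the Foxo1 of every cell type and is no check of the deletion in myeloid cells. edgeR called 25 genes, 0.188% of those tested, for which the Benjamini-Hochberg adjusted P lay below 0.05 and the log2 fold change exceeded 1.5 in either direction.

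Of the 10 genes, 5 passed the filter (Il1b, Nlrp3, Il18, Il1rn and Mrc1) and 5 did not (Tnf, Il6, Nos2, Il10 and Retnla). None of the 5 tested genes was called, and none had an adjusted P under 0.05. At an unadjusted P under 0.05 stood 1 of them, Il1b, beside 16.7% of all tested genes (8.65% upward and 8.06% downward in MøFoxO1-KO livers). Whole liver RNA mixes cell types, and fewer cells of a type cannot be told apart from less RNA per cell. The WT and MøFoxO1-KO livers overlapped in each of the 10 genes, whereas they did not overlap in 9.71% of all tested genes. Mean normalized counts were higher in MøFoxO1-KO livers for 8 genes, from both the M1 and the M2 side, and lower for Il1rn, while Retnla was at 0. Over all 13278 tested genes, 6417 had a log2 fold change above 0. The 8 include Nos2, which had 2 counts in each group, and Il6 and Il10, with at most 6 counts in a liver. They also include Nlrp3, whose direction rested on replicate 29.

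Levels of different genes were compared as RPKM, which divides by the exon length. Il18 had the highest mean over the 8 livers, 12.7 RPKM, and was above Mrc1, at 4.84 RPKM, in 8 of 8 livers with no overlap. Il1b followed with 2.34 RPKM and Il1rn with 1.09 RPKM, and Il1b was the higher of the pair in 5 of 8 livers. Tnf stood at 0.380 RPKM and Nlrp3 at 0.244 RPKM. Il10 at 0.0399, Il6 at 0.0378 and Nos2 at 0.00722 RPKM were close to the level of single reads, and their ranges overlapped. Each neighbouring pair other than Il18 and Mrc1 overlapped in range over the 8 livers.

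Il1b (ENSMUSG00000027398) encodes the cytokine IL-1β and lies on chromosome 2 from 129364570 to 129371139 of GRCm38. WT replicates 22, 23, 24 and 25 had 15, 15, 52 and 41 Il1b counts, and MøFoxO1-KO replicates 26, 27, 28 and 29 had 47, 133, 30 and 210. Replicates 27 and 29 stood above every WT liver, and replicates 26 and 28 lay within the WT range. The normalized count was 29.3 ± 17.5 (SD, n = 4) across WT livers against 117 ± 97.6 (SD, n = 4) across MøFoxO1-KO livers. The log2 difference of 1.98 ± 0.68 (SE) did not pass the test (edgeR, adjusted P = 0.204, exact permutation P = 0.143).

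By DESeq2 the same counts gave Il1b a log2 fold change of 2.01 with an adjusted P of 0.0372, which passes both thresholds, so its call depended on the tool. Without MøFoxO1-KO replicate 29 the edgeR log2 fold change was 1.38, with an adjusted P of 0.441. Il1b shares 25 exon bases with the antisense gene Il1bos, which had 9 counts over the 8 livers, and the strand setting of the counting is not given in the sources used here.

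**Figure D1:**
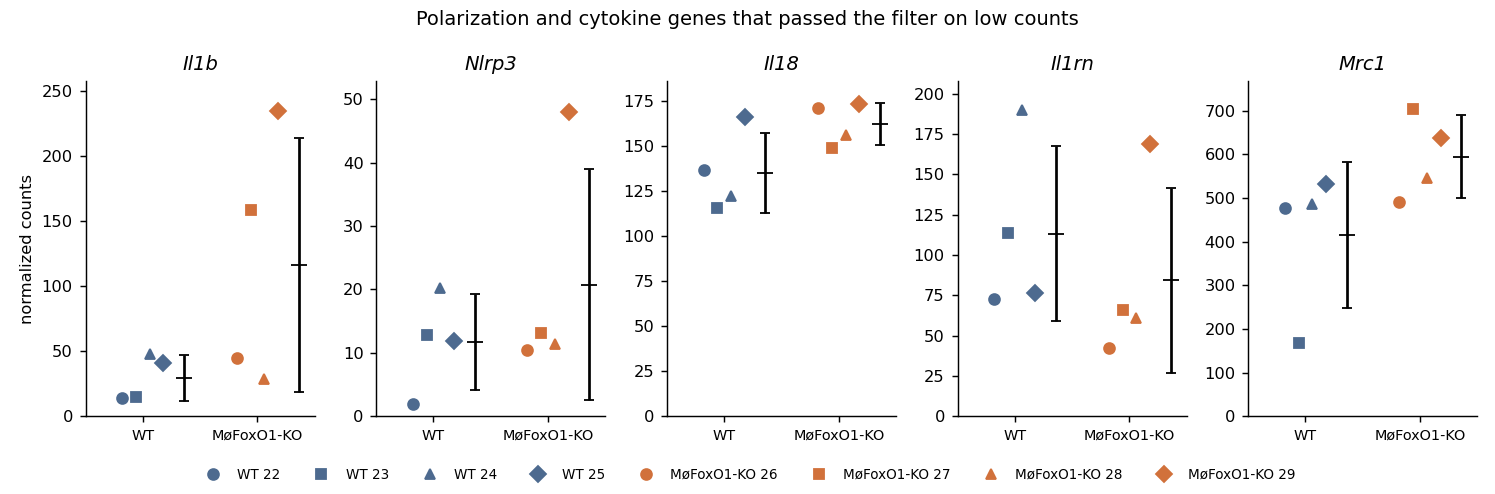
Normalized counts of the 5 tested genes in each liver (vertical axis, from 0), with WT in blue, MøFoxO1-KO in orange, 1 symbol per mouse and the mean ± SD in black. The groups overlap in every panel, and Il1b is high in MøFoxO1-KO replicates 27 and 29 only.

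Nlrp3 (ENSMUSG00000032691) encodes the sensor of the NLRP3 inflammasome and lies on chromosome 11 from 59541568 to 59566956. In the WT livers 2, 13, 22 and 12 reads were counted, in the order of replicates 22 to 25, and in the MøFoxO1-KO livers 11, 11, 12 and 43, in the order of replicates 26 to 29. Only replicate 29 exceeded the WT range. The means were 11.7 ± 7.55 (SD, n = 4) against 20.8 ± 18.2 (SD, n = 4) normalized counts, which differ by 0.81 ± 0.68 (SE) on the log2 scale (edgeR, adjusted P = 0.591, exact permutation P = 0.543). Without replicate 29 this value was -0.010, so the direction rested on that liver.

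Il18 (ENSMUSG00000039217) encodes IL-18, the other cytokine cut by caspase-1. WT livers had 146, 118, 133 and 167 counts and MøFoxO1-KO livers had 179, 125, 165 and 155. It had the smallest spread of the 5 tested genes, with a coefficient of variation of 16.4% in WT and 7.21% in MøFoxO1-KO livers. The normalized count was 135 ± 22.2 (SD, n = 4) across WT livers against 162 ± 11.7 (SD, n = 4) across MøFoxO1-KO livers, and WT replicate 25 alone reached into the MøFoxO1-KO range. The log2 difference of 0.27 ± 0.16 (SE) did not pass the test (edgeR, adjusted P = 0.430, exact permutation P = 0.0857). The gene model in the table runs from 50575273 to 50581837 on chromosome 9, whereas Il18 begins at 50554827 in GENCODE M21, so reads on the exon upstream were not counted and the RPKM is that of the shorter model.

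Il1rn (ENSMUSG00000026981) encodes the IL-1 receptor antagonist and lies on chromosome 2 from 24336853 to 24351494. WT livers had 78, 116, 206 and 77 counts and MøFoxO1-KO livers had 44, 55, 64 and 151. Replicates 26, 27 and 28 stood below every WT liver, and replicate 29 stood within the WT range. The normalized count was 113 ± 54.2 (SD, n = 4) across WT livers against 84.2 ± 57.2 (SD, n = 4) across MøFoxO1-KO livers, and the log2 difference was -0.43 ± 0.45 (SE) (edgeR, adjusted P = 0.675, exact permutation P = 0.457). Without replicate 29 the log2 fold change was -1.02 (edgeR, adjusted P = 0.334), and without WT replicate 24 it was -0.06.

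Mrc1 (ENSMUSG00000026712) encodes the mannose receptor CD206 and lies on chromosome 2 from 14229392 to 14332057. WT livers had 509, 171, 529 and 536 counts and MøFoxO1-KO livers had 512, 591, 576 and 570. WT replicate 23 stood far below the other 7 livers. The normalized count was 416 ± 167 (SD, n = 4) across WT livers against 594 ± 95.3 (SD, n = 4) across MøFoxO1-KO livers, and the log2 difference was 0.51 ± 0.30 (SE) (edgeR, adjusted P = 0.424, exact permutation P = 0.0571). When WT replicate 23 was left out, it was 0.25 (edgeR, adjusted P = 0.476).

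**Figure D2:**
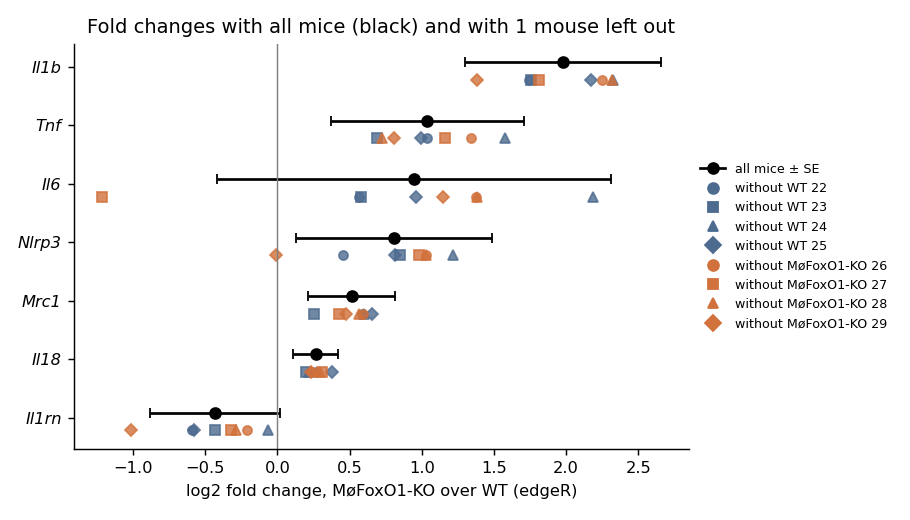
Log2 fold changes of MøFoxO1-KO over WT livers by edgeR (horizontal axis), with all 8 mice in black (bars are standard errors) and with each mouse left out in turn (blue, a WT mouse left out, orange, a MøFoxO1-KO mouse left out). Tnf and Il6 come from the fit without a filter, Il6 crosses 0 without replicate 27 and Nlrp3 without replicate 29.

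Tnf (ENSMUSG00000024401), the gene of the cytokine TNF, lies on chromosome 17 from 35199381 to 35202007. WT livers had 7, 1, 14 and 6 counts and MøFoxO1-KO livers had 4, 8, 23 and 18. Replicates 28 and 29 stood above the WT range, and replicates 26 and 27 within it. In sum 28 counts stood against 53, a ratio of 1.86 after scaling for library size (exact 95% interval 1.15 to 3.05, which covers counting error only). Between mice the difference did not pass the test (log2 fold change 1.04, standard error 0.67, edgeR without a filter, adjusted P = 0.575, exact permutation P = 0.229).

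Il6 (ENSMUSG00000025746), the gene of the cytokine that drives the acute phase response of hepatocytes, lies on chromosome 5 from 30013114 to 30019981 and had 0, 0, 3 and 1 counts in WT and 0, 6, 0 and 1 counts in MøFoxO1-KO livers. In sum 4 counts stood against 7, a ratio of 1.72 with an exact 95% interval from 0.437 to 8.01. Replicate 27 held 6 of the 7 MøFoxO1-KO counts. The edgeR fit without a filter gave a log2 difference of 0.95 ± 1.36 (SE) (adjusted P = 0.774) and of -1.21 without replicate 27. A difference in Il6 was not detectable at this depth.

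Il10 (ENSMUSG00000016529), the gene of an antiinflammatory cytokine, lies on chromosome 1 from 131019845 to 131024974 and had 0 counts in all 4 WT livers and 0, 2, 0 and 4 counts in MøFoxO1-KO livers. Only replicates 27 and 29 held reads. Against a floor of 3 counts over the WT group, the 6 counts of the MøFoxO1-KO group were at least 1.96-fold higher, which takes no counting error of the 6 into account, and the lower end of the exact 95% interval for 6 against 0 counts was a ratio of 1.16, for counting error only. Without replicate 29 the 2 counts left lie under the floor, and no fold can be given. The difference did not pass the test (edgeR without a filter, unadjusted P = 0.0436, adjusted P = 0.409, exact permutation P = 0.429). Nos2 (ENSMUSG00000020826), the gene of inducible nitric oxide synthase, lies on chromosome 11 from 78920787 to 78960254 and had 0, 1, 1 and 0 counts in WT and 0, 0, 1 and 1 counts in MøFoxO1-KO livers.

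Retnla (ENSMUSG00000061100), the gene of RELMα, lies on chromosome 16 from 48842552 to 48844461 and had 0 counts in all 8 livers, which allows a level of up to 0.166 to 0.197 CPM per liver. Nos2 and Retnla are the usual single-gene signs of M1 and M2 activation, and neither gave a usable comparison in whole liver.

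**Figure D3:**
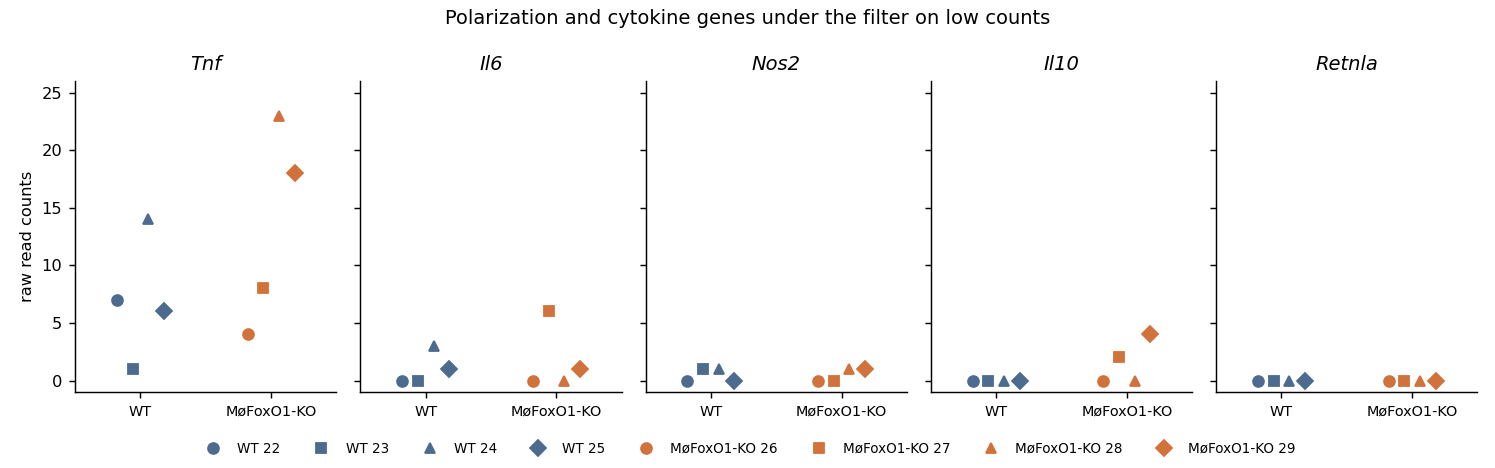
Raw counts (vertical axis) of the 5 genes under the filter in each WT (blue) and MøFoxO1-KO (orange) liver. Tnf reaches 23 counts, Il6 6 and Il10 4, while Nos2 does not exceed 1 and Retnla is at 0 in every liver.

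Summed Kupffer cell markers (Clec4f, Vsig4, Timd4, Marco, Cd5l, Folr2 and C6) lay between 178 and 282 CPM in WT livers and stood at 483, 790, 254 and 891 CPM in MøFoxO1-KO replicates 26 to 29. All 7 markers had fold changes above 0, and none was called. On the log2 scale these ran from 0.66 (Clec4f) to 5.18 (Marco). Marco had 5 to 88 counts in WT livers and 769, 2271, 70 and 1893 in MøFoxO1-KO livers. In replicate 26 Marco and C6 (4019 counts) stood above the WT range, as did Vsig4, Folr2 and Timd4. Clec4f (1097 counts) and Cd5l (1578 counts) lay within the WT range in that liver. The replicates with the most Il1b, 27 and 29, also had the highest Kupffer cell sums, and replicate 28, with the least Il1b of the MøFoxO1-KO group, lay within the WT range of the sum. The part of Kupffer cells in the Il1b difference was not tested.

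Per 1000 CPM of Kupffer cell markers, a scale chosen after seeing the data, Il1b was 7.45 ± 3.68 (SD, n = 4) CPM across WT livers against 10.2 ± 4.85 (SD, n = 4) CPM in MøFoxO1-KO ones, with overlap. Per 1000 CPM of the 10 macrophage markers, Il1b was 11.6 ± 5.33 (SD, n = 4) across WT livers against 34.3 ± 17.4 (SD, n = 4) CPM in MøFoxO1-KO ones, without overlap. That sum includes Lyz2, the gene whose promoter drove Cre. Lyz2 had 646, 384, 1268 and 705 counts in WT and 431, 83, 147 and 913 in MøFoxO1-KO livers. On the macrophage scale Il1b ranged from 5.85 to 17.8 CPM in WT and from 18.3 to 53.6 CPM in MøFoxO1-KO livers. The lack of overlap holds only with Lyz2 in the sum. With Lyz2 taken out, WT replicate 25 stands above MøFoxO1-KO replicate 28. On the Kupffer cell scale Il1rn ranged from 18.5 to 41.1 CPM in WT and from 5.07 to 14.6 CPM in MøFoxO1-KO livers, without overlap. This lack of overlap holds only with C6 in the sum. C6 had 721 to 1784 counts in WT and 1630 to 4019 in MøFoxO1-KO livers. With C6 taken out, MøFoxO1-KO replicate 28 stands above WT replicate 22. The share of all genes without overlap was computed on neither the Kupffer cell nor the macrophage scale. On the macrophage scale Il1rn ranged from 30.4 to 67.2 CPM in WT and from 19.6 to 39.0 CPM in MøFoxO1-KO livers, and per 1000 CPM of sinusoidal endothelial markers from 15.4 to 61.8 and from 10.5 to 51.6 CPM, with overlap on both. Il1b also overlapped on the endothelial scale, with 2.95 to 12.5 CPM in WT and 4.95 to 71.8 CPM in MøFoxO1-KO livers. These ratios move with their denominators and were not tested.

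Mrc1 was lowest in WT replicate 23, which also had the lowest sum of sinusoidal endothelial markers (Stab1, Stab2, Clec4g, Lyve1, Fcgr2b, Kdr and Pecam1), 112 CPM beside 200 to 351 CPM in the other 7 livers. Per 1000 CPM of these markers, Mrc1 was 109 ± 16.1 (SD, n = 4) across WT livers against 139 ± 42.4 (SD, n = 4) CPM in MøFoxO1-KO ones, with overlap. The part of endothelial cells in the Mrc1 values was not tested. Macrophage markers summed to 103 to 209 CPM in WT and 94.9 to 323 CPM in MøFoxO1-KO livers, and neutrophil markers to 3.18 to 9.11 and 2.40 to 9.21 CPM. Lipid-associated macrophage markers summed to 93.3 to 136 CPM in WT and 88.2 to 147 CPM in MøFoxO1-KO livers. Of these 5 markers 3 had log2 fold changes below 0 (Gpnmb -4.13, Trem2 -3.88 and Spp1 -0.23) and 2 above 0 (Fabp5 1.91 and Cd9 0.41), and Gpnmb alone was called (edgeR, adjusted P = 0.0382).

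**Figure D4:**
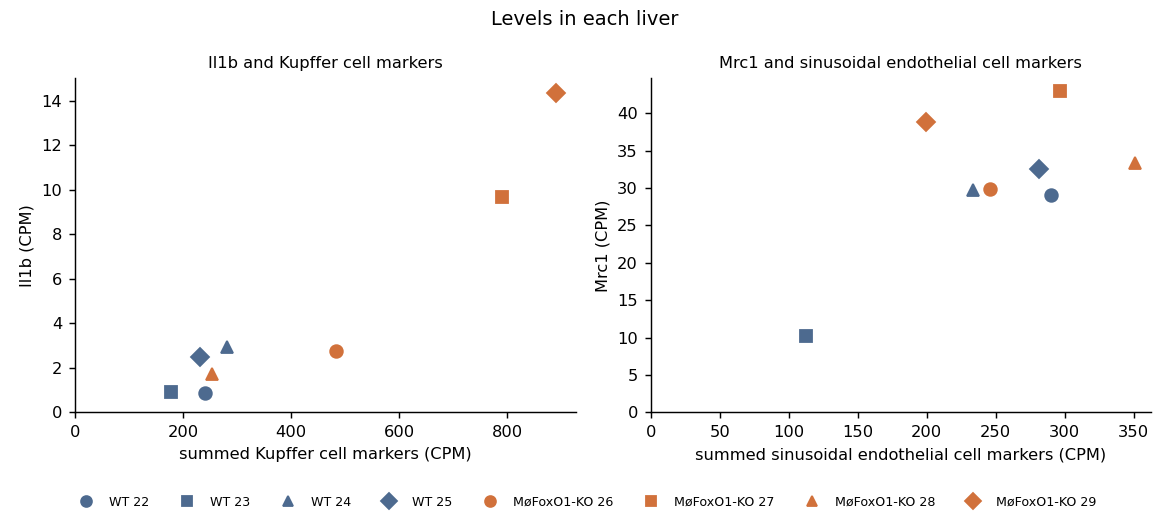
Il1b against summed Kupffer cell markers (left) and Mrc1 against summed sinusoidal endothelial cell markers (right), both in CPM, 1 point per liver, with WT in blue and MøFoxO1-KO in orange. MøFoxO1-KO replicates 27 and 29 lie at the top right on the left, and WT replicate 23 lies at the bottom left on the right.

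The genes most like each tested gene over the 8 livers were found by Pearson correlation of log2 CPM, as a description over points that share a library. The values given are the highest among the 13278 tested genes, so they are high in part by this selection. Il1b was nearest to Pou2f2 (r = 0.98, n = 8), Pdlim4 (r = 0.97) and Rrp36 (r = 0.97). Mrc1 was nearest to Fcgrt (r = 0.99), the gene of the neonatal Fc receptor, Egfl7 (r = 0.99), an endothelial gene, and Naprt (r = 0.98). Il1rn was nearest to Nfkb1 (r = 0.95), Gng2 (r = 0.94) and Cd300lb (r = 0.94). Il18 was nearest to Tradd (r = 0.97), Eif1ad (r = 0.96) and Nostrin (r = 0.95), and Nlrp3 to Pou2f1 (r = 0.96), Tmem159 (r = 0.95) and Tmem50b (r = 0.94).

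Around these genes, 8 pathway lists held 144 genes, of which 112 were tested. None was called or had an adjusted P under 0.05. At an unadjusted P under 0.05 stood 20 (17.9%), 13 higher and 7 lower, beside the 16.7% of all tested genes. The groups did not overlap in 6 of the 112 (5.36%), beside 9.71% of all tested genes, and the median log2 fold change was 0.07, beside -0.01 over all tested genes.

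Of 31 M1 genes 20 were tested, 14 with a fold change above 0 and 6 below it, and their median was 0.43 on the log2 scale, or 0.32 over the 18 genes outside the set of 10. Irf5, a transcription factor of M1 activation, had the smallest P value (102 ± 21.8 in WT and 230 ± 92.8 normalized counts in MøFoxO1-KO livers, log2 fold change 1.17, edgeR adjusted P = 0.110). Of 26 M2 genes 16 were tested, 9 higher and 7 lower, with a median of 0.04. Pparg, a nuclear receptor of M2 activation that steatotic hepatocytes also express, had 512, 474, 576 and 290 counts in WT and 9, 68, 271 and 46 in MøFoxO1-KO livers, which did not overlap. Its log2 difference of -2.14 ± 0.67 (SE) did not pass the test (edgeR, adjusted P = 0.181), whereas without MøFoxO1-KO replicate 28 it passed both thresholds. Folr2, a folate receptor of resident macrophages and also in the Kupffer cell list, had a log2 fold change of 1.37 (edgeR, adjusted P = 0.191). Arg1, read as an M2 gene and also a urea cycle enzyme of hepatocytes, had 9000 to 20468 counts.

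Of 19 inflammasome and pyroptosis genes 16 were tested, 14 above and 2 below 0, and their median was 0.39 on the log2 scale, or 0.36 over the 13 genes outside the set of 10. Gsdmd, whose product forms the pore through which IL-1β leaves the cell, was at 480 ± 11.4 (SD, n = 4) normalized counts in WT and 645 ± 72.8 (SD, n = 4) across MøFoxO1-KO livers (log2 fold change 0.42, edgeR adjusted P = 0.125). Of 25 IL-1 family genes 17 were tested, 11 higher and 6 lower, with a median of 0.13. Il1rap, the accessory chain of the IL-1 receptor, was at 2517 and 3535 normalized counts (log2 fold change 0.49, edgeR adjusted P = 0.121).

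Of 24 TNF and NF-kB genes 23 were tested, 7 above and 16 below 0, and their median was -0.08 on the log2 scale. Nfkb2, an NF-kB subunit, had -0.46 (edgeR adjusted P = 0.219) and Tnfrsf1b, a TNF receptor, had -0.36 (adjusted P = 0.249). Of 19 IL-6 signaling genes and targets 18 were tested, 12 higher and 6 lower, with a median of 0.15, and the acute phase genes Fgg and Orm1 had log2 fold changes of 0.57 (edgeR adjusted P = 0.202) and 1.18 (adjusted P = 0.215). Of 8 IL-10 pathway genes 7 were tested, 3 higher and 4 lower, with a median of -0.04. The smallest P values were those of Il10ra, the ligand-binding chain of the receptor (log2 fold change 0.61, edgeR adjusted P = 0.412), and Bcl3 (-0.21, adjusted P = 0.566). Of 13 IL-4, IL-13 and STAT6 genes 11 were tested, 3 higher and 8 lower, with a median of -0.14, and Irs2, an adaptor of the insulin and IL-4 receptors, had -0.65 (edgeR adjusted P = 0.259). Several genes stand in more than 1 list.

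**Figure D5:**
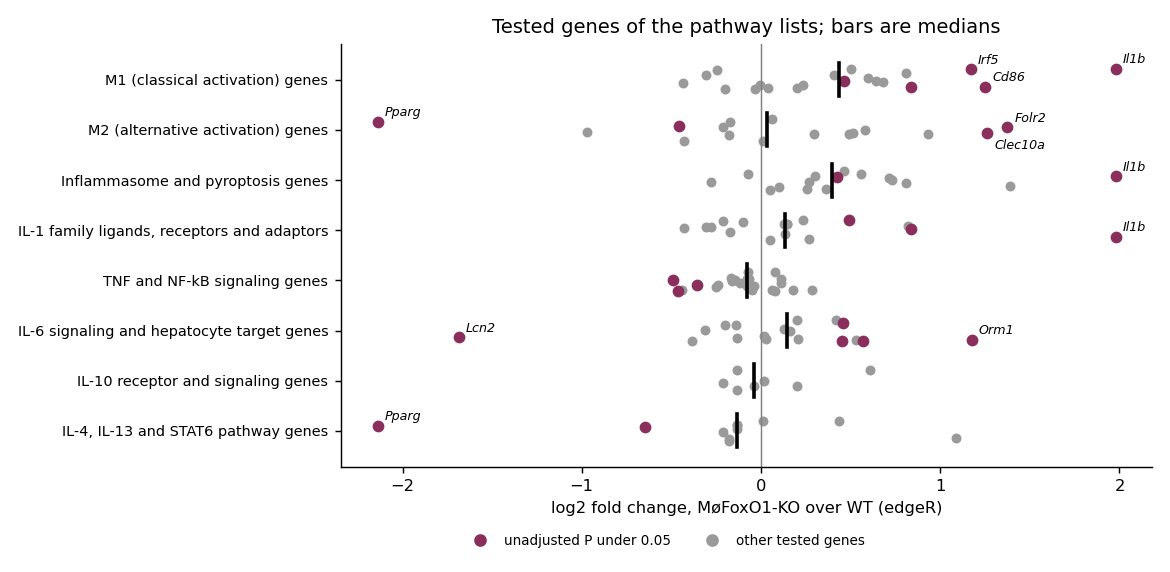
Log2 fold changes of MøFoxO1-KO over WT livers by edgeR (horizontal axis) for the tested genes of the 8 pathway lists (vertical axis), with genes at an unadjusted P under 0.05 in purple, other genes in grey and list medians as bars. The medians lie between -0.14 and 0.43, and no gene passed the adjusted test.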

How the data were processed

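Polyadenylated RNA of whole liver, from 10 mg of tissue, was sequenced in 4 WT and 4 MøFoxO1-KO mice. The authors deposited raw read counts per Ensembl gene, without normalization and without pooling of replicates. The submitters' processing notes name STAR, featureCounts and mm10, without versions. Strand setting and treatment of multi-mapped reads are not given in the sources used here. Exon lengths came from the deposited table, and 46005 of 46517 genes took a symbol from GENCODE M21.

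Genes were filtered with filterByExpr (minimum count 10, minimum total 15), normalized by TMM and tested with edgeR 4.0.16 (quasi-likelihood F test, R 4.3.3), MøFoxO1-KO against WT, without covariates. The Benjamini-Hochberg adjustment ran over the 13278 tested genes, whose common biological coefficient of variation was 0.256. Exact two-sided permutation tests of normalized counts over 70 splits (scipy 1.17.1) allow no P under 0.0286. Alternatives were DESeq2 1.42.0, limma-voom 3.58.1, other normalizations, filters and thresholds, and leaving out each mouse. The scripts were tested on simulated data. The edgeR P values weigh the difference between groups against the spread between mice, with the dispersion of each gene moderated over all tested genes. Standard errors of edgeR log2 fold changes were derived from the same test, as the absolute value divided by the square root of F. They hold no information beyond that test. Permutation P values come from the share of the 70 splits with a difference at least as large.

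The 10 genes, the 8 pathway lists, the 13 marker lists and the naming rule were chosen with earlier results of these data known. Of each pathway list, genes past the test or otherwise the 2 with the smallest P were named, and for each tested gene of the set the 3 most correlated genes. In the M1 list, 1 gene that this rule names is not reported here. The lipid-associated macrophage genes, Arg1 and levels per marker sum were chosen for the text after their values were seen. Of marker lists not described in the text (monocyte, dendritic cell, T or NK cell, B cell, hepatocyte, stellate cell, cholangiocyte and adipocyte), no gene was called.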

Additional observations from a re-analysis of the deposited data

Results flagged for a closer look

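Of 15 groups of 4 livers examined among the 10 genes, 3 held a liver far from the other 3. A further 10 marker sums were looked at. Chance flags about 1 in 20 such groups where values are normally distributed. Low and uneven counts, such as those of Il6 and Nlrp3, need not keep that rate, so no excess over chance can be read from the flags. Il6 stood at 7.15 normalized counts in MøFoxO1-KO replicate 27, beside 0 to 1.12 in the others of its group. Mrc1 stood at 168 normalized counts in WT replicate 23, beside 476 to 532. Nlrp3 stood at 48.0 normalized counts in MøFoxO1-KO replicate 29, beside 10.5 to 13.1.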

How the results depend on the processing

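Of all tested genes 25 were called by edgeR, 144 by DESeq2, 13 by limma-voom, 120 without a filter and 39 at the adjusted P alone, and leaving out 1 mouse gave 3 (without WT replicate 25) to 82 (without MøFoxO1-KO replicate 28). Of the 10 genes 0 were called by edgeR, 1 (Il1b) by DESeq2 and 0 under the other alternatives, including each left-out mouse. Of the pathway genes 0 were called by edgeR, 1 (Il1b) by DESeq2, and 0 to 1 with a mouse left out, the 1 being Pparg without replicate 28. Non-overlapping genes of the 10 numbered 0, and 0 to 2 with a mouse left out: Mrc1 and Il18 without WT replicate 25, Mrc1 without replicate 26 and Il1rn without replicate 29. Fewer samples make such separation easier, and the share over all tested genes was computed only with no mouse left out. With a mouse left out the log2 fold change of Il6 ranged from -1.21 to 2.19 and that of Nlrp3 from -0.010 to 1.21. Over all alternatives the log2 fold change was 1.38 to 2.32 for Il1b (adjusted P 0.0372 to 0.450), 0.25 to 0.65 for Mrc1, 0.20 to 0.38 for Il18, -1.02 to -0.06 for Il1rn and, over left-out mice, 0.69 to 1.58 for Tnf. Of 85 such values 2 changed sign. No fold change of Nos2, Il10 or Retnla was recomputed, since their counts are at or near 0. No paired analysis was possible because the replicate numbers of WT and MøFoxO1-KO mice are not shared. Depth limits Tnf, Il6, Il10, Nos2 and Retnla, which had at most 23 counts in a liver.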
